A study of Drosophila melanogaster with 2 samples.

Results

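The Eip74EF and Eip75B regions of chromosome arm 3L held 54 binding peaks of the GAGA factor in Drosophila Kc cells, of 745 peaks on 3L and 3842 in the whole list. Peaks were taken by position in the BDGP5 assembly, with the midpoint from 17540000 to 17630000 for the Eip74EF region and from 17900000 to 18100000 for the Eip75B region. The first region is 90 kb long and held 17 peaks, and the second is 200 kb long and held 37. The regions were chosen by the position of the genes, with the peak numbers and scores of this list already known, so their peak numbers, widths, scores and spacing are given as a description, with no test.

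The data come from chromatin immunoprecipitation followed by sequencing (ChIP-seq) in Kc cells, an established Drosophila melanogaster cell line of embryonic origin. The ChIP sample was made with the antibody KW3-Trl-D2, named for Trl, the gene that encodes the GAGA factor, and an input chromatin sample, whose title names K4me3 as well as Trl-D2, is the control named by the series design. Whether the peak caller used that input is not given in the sources at hand, so a peak and its score may or may not be relative to input. Both were labelled as Kc with no treatment, and the labels name no genotype or added hormone. Both were crosslinked with 1.8% formaldehyde for 15 min and sonicated for 15 min. Their growth protocol describes flies rather than cell culture. The ChIP sample gave 1 peak list and there was no replicate list, so no value below has an error between cultures or libraries. The list holds no reads, so depth is unknown and a stretch without peaks cannot be tied to an absence of binding.

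Eip74EF and Eip75B are early genes of the response to the steroid hormone 20-hydroxyecdysone, and both were first seen as large puffs of the larval salivary gland polytene chromosomes. Eip74EF encodes transcription factors of the ETS family, and Eip75B encodes nuclear receptors that bind heme. Each gene makes several isoforms from separate promoters, known as E74A and E74B for Eip74EF and as E75A, E75B and E75C among those of Eip75B. The GAGA factor binds GA-rich sequence, forms oligomers through its BTB/POZ domain and is known for keeping promoters and regulatory elements free of nucleosomes. In the RefSeq annotation of Release 6, used here for names and gene order alone, 48 protein-coding genes lie between Eip74EF and Eip75B. The protein-coding genes next to Eip74EF are CycT and Vps60, and those next to Eip75B are CG5290 and CG44006, while CG32192 and CG42393 overlap Eip75B. No BDGP5 annotation or sequence was used here, so the gene extents were not checked and peaks were not assigned to promoters, introns or neighbouring genes.

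Both regions were far denser in peaks than the arm around them. The Eip74EF region carried 18.9 peaks per 100 kb and the Eip75B region 18.5, against 3.02 over the rest of 3L. Peaks covered 12.71 kb of the Eip74EF region (14.1%) and 19.55 kb of the Eip75B region (9.77%), against 1.85% of the rest of the arm. The 270 kb between the regions held 12 peaks, or 4.44 per 100 kb, and none of them scored 3100 or more. Together the regions made up 1.25% of the length of 3L, counted to the end of its last peak, and held 7.25% of its peaks.

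Against windows of the same size, moved along 3L in steps of 5 kb and kept clear of both regions, the Eip75B region stood above every window in peak number. It held 37 peaks, against a median of 5 in the 200 kb windows, with quartiles at 3 and 8 and a maximum of 22, so 0 of 4460 windows (0%) reached it. The Eip74EF region held 17 peaks, against a median of 2 in the 90 kb windows, with quartiles at 1 and 4 and a maximum of 18. Its number was reached by 6 of 4526 windows (0.133%). These 6 windows held up to 18 peaks and overlap each other within one stretch from 7770001 to 7885000. In covered length, with all peaks counted, no 3L window reached either locus (0%). With the lower-scoring 50% of the list left out, 0.287% of 3L windows reached Eip74EF. Over the 5 major arms, 0.343% of windows reached Eip74EF and 0.238% reached Eip75B. Peaks covered 12713 bp at Eip74EF, against at most 11199 bp in a 90 kb window, and 19545 bp at Eip75B, against at most 14668 bp in a 200 kb window. Neighbouring windows share peaks, so these shares describe places along one arm and are not independent draws.

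**Figure D1:**
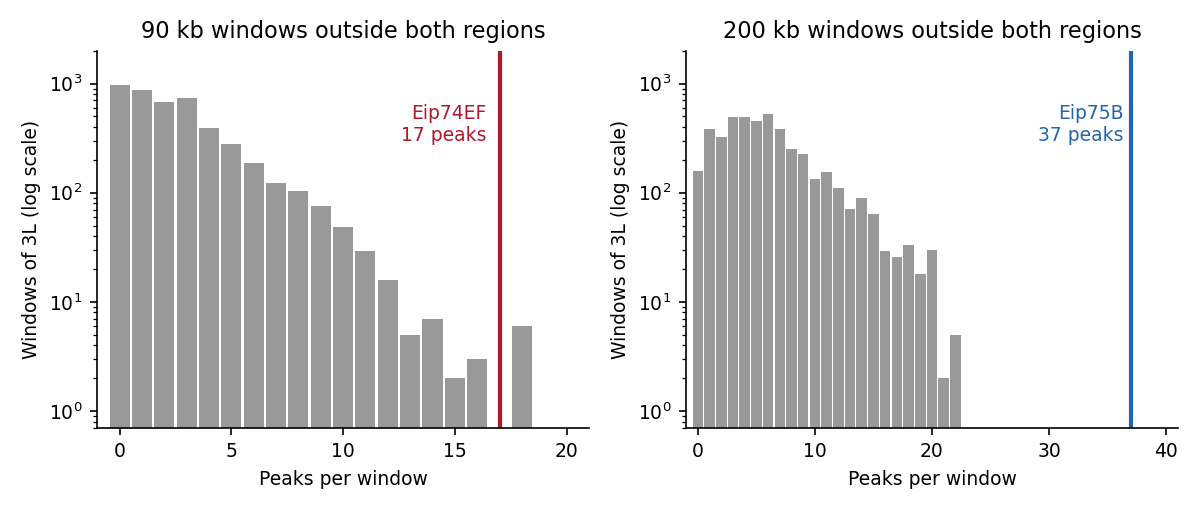
Number of GAGA factor peaks per window (x axis) against the number of windows of 3L outside both regions on a log scale (y axis), for windows of 90 kb (left) and 200 kb (right) in 5 kb steps. The coloured line marks the region itself, at 17 peaks for Eip74EF, where the fullest window held 18, and at 37 peaks for Eip75B, where the fullest window held 22.

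On the other major arms, windows as full as the loci did occur. The fullest 90 kb window held 17 peaks on 2L, 23 on 2R, 19 on 3R and 30 on X. For 200 kb, the fullest window held 24 peaks on 2L, 35 on 2R and 24 on 3R, all below Eip75B, and 43 on X from 3565001 to 3765000.

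Many peaks at Eip74EF had high scores. The score is the value deposited by the authors for each peak, whose scale the file does not state. A higher score is read here as a stronger call only up to 3100, a value that many peaks share. Peaks at or above it are not ranked by strength among themselves, and a median of 3100 is not taken as a measured strength. At Eip74EF, 6 of 17 peaks (35.3%) scored 3100 or more, against 63 of 691 peaks (9.12%) on the rest of 3L. The value of 3100 is a tie shared by 267 peaks of the whole list, with 28 above it, and the list as a whole ran from 50.11 to 3233.06 with a median of 379.8. No more than 6 such peaks lay in any 90 kb window of 3L, and 3 of 4526 windows (0.0663%) held that many. The median score was 789.14 at Eip74EF and 439.49 on the rest of 3L. Of the 17 peaks, 8 fell in the highest score quartile of the list (47.1%, against 26.5% on the rest of 3L). One peak, or 5.88%, scored under 100, against 18.8% on the rest of 3L. As a median the locus was less apart, since 21.6% of the 886 windows with at least 5 peaks had a median score as high.

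The peak with the highest score value in the Eip74EF region lay from 17562676 to 17563839 and was 1164 bp wide. Its score of 3233.06 is the highest value of the whole list, which 3 peaks share. The 5 peaks at the tied score of 3100 lay along the whole occupied stretch. The first of them, from 17556404 to 17557402, was also the first peak of the region, and the last, from 17612070 to 17612826, was its last peak. The widest peak of the region, 1265 bp from 17570336 to 17571600, was tied as well, and so were the peaks from 17583395 to 17584334 and from 17599634 to 17600516. Next in score were a peak of 1028 bp from 17604769 to 17605796 with 2991.87 and one of 746 bp from 17566706 to 17567451 with 1358.08. Below them came the peak from 17609862 to 17610542 with 789.14 and the one from 17606925 to 17607649 with 543.76. The lowest score, 85.94, belonged to a peak of 341 bp from 17606327 to 17606667, which lay 530 bp from the peak that scored 2991.87 and 257 bp from the one that scored 543.76.

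The largest run at Eip74EF, joined at gaps under 2 kb, comprised 6 peaks from 17562676 to 17573183, and peaks covered 45.4% of its 10.51 kb. It contained the highest-scoring and the widest peak together with peaks that scored 129.75, 1358.08, 109.66 and 215.73. The peak that scored 109.66 was the narrowest of the region at 323 bp. A run of 3 peaks lay from 17604769 to 17607649, and pairs lay from 17599634 to 17602389 and from 17609862 to 17612826. Runs of 2 or more held 13 of the 17 peaks (76.5%, against 53% on the rest of 3L), and the other 4 peaks stood alone. The remaining 3 peaks of the region scored between 196.77 and 464.53.

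**Figure D2:**
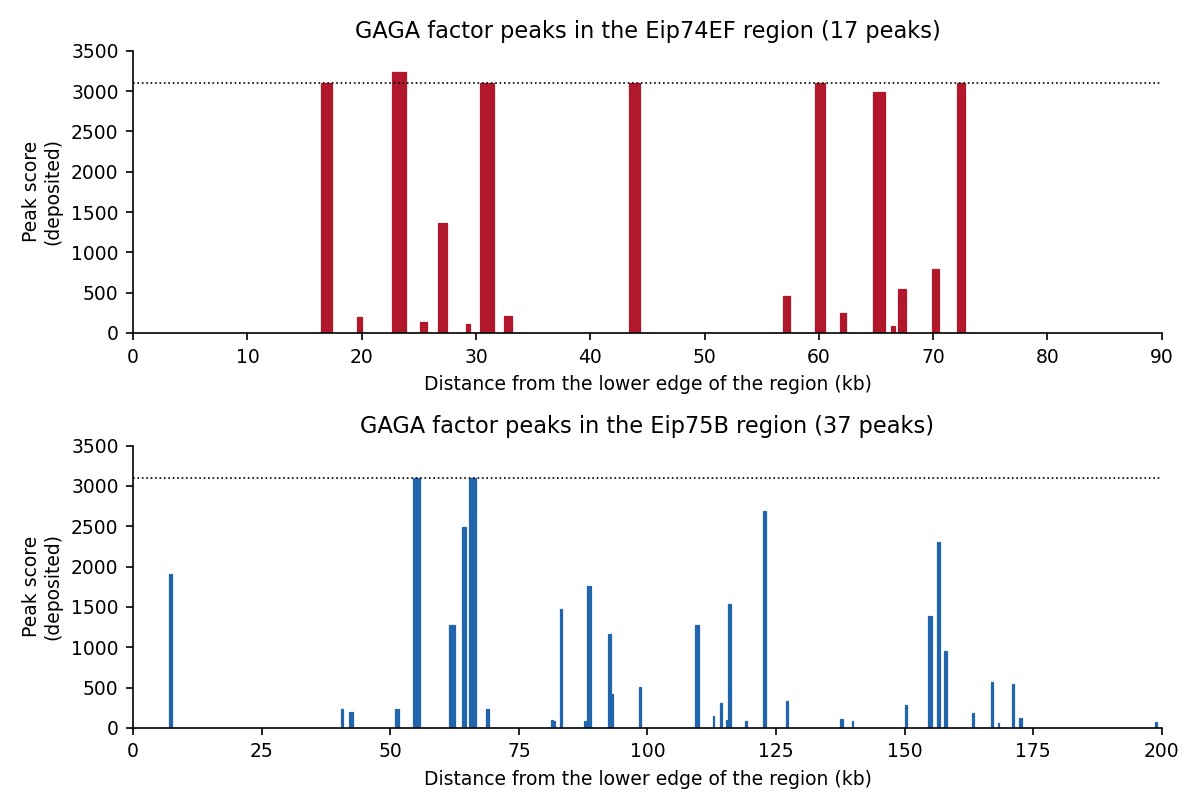
Position and score of every GAGA factor peak in the Eip74EF region (top, 17 peaks) and the Eip75B region (bottom, 37 peaks). The x axis is the distance from the lower edge of the region in kb, bars have the width of the peak to scale, the y axis is the deposited score, and the dotted line is the tied score of 3100, which 6 peaks reach at Eip74EF and 2 at Eip75B.

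Eip75B differed from Eip74EF in the make-up of its peaks, although the number per 100 kb was close. Its 37 peaks had a median score of 330.85, against 439.49 on the rest of 3L, and 65.3% of 2607 windows of 200 kb with at least 5 peaks had a median at least as high. The tied score was held by 2 peaks (5.41%, against 9.12% scoring 3100 or more on the rest of 3L), a number that 10.5% of all 4460 windows reached. Scores under 100 were held by 8 peaks (21.6%, against 18.8%). The 10 peaks of the highest score quartile (27%) were close in share to the 26.5% of the rest of the arm. What set the Eip75B region apart was therefore the number of peaks and the length covered, and the scores of its peaks lay within the middle of the range of other windows.

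The tied peaks at Eip75B lay from 17954488 to 17955792, which was the widest at 1305 bp, and from 17965391 to 17966621, with a width of 1231 bp. Between them lay a peak that scored 1280.39 and, from 17964030 to 17964682, one that scored 2490.9. Counted in 50 kb bins from the lower edge of the region, the second bin, from 50 to 100 kb, was the fullest, with 14 peaks, 7 of them scoring 1000 or more. The first bin held 3 peaks, and the third and the fourth held 10 each, with 1, 3 and 2 peaks of 1000 or more in that order. Farther along, the highest scores were 2695.31 for a peak of 476 bp from 18022555 to 18023030 and 2308.89 for a peak of 535 bp from 18056260 to 18056794. They were followed by 1908.81 for the first peak of the region, from 17906973 to 17907555, and by 1760.48 from 17988212 to 17989035. The other named scores were 1539.41 from 18015579 to 18016276, 1477.19 from 17982981 to 17983471 and 1381.55 from 18054636 to 18055302.

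Small peaks were frequent at Eip75B. The narrowest peak measured 209 bp, from 17981801 to 17982009, with a score of 89.46. The lowest score was 57.59, for a peak of 218 bp from 18068110 to 18068327. Widths under 300 bp were found for 0 of 17 peaks at Eip74EF and for 6 of 37 (16.2%) at Eip75B, against 7.24% on the rest of 3L. Widths of 1 kb or more were found for 3 peaks at each locus, which is 17.6% at Eip74EF and 8.11% at Eip75B, against 10.6%. The median width was 727 bp at Eip74EF, with quartiles at 543 and 940 bp, and 453 bp at Eip75B, with quartiles at 393 and 604 bp. The rest of 3L had a median of 526 bp. Among windows with at least 5 peaks, 14.2% had a median width at or above that of Eip74EF and 76.9% at or above that of Eip75B.

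Wider peaks had higher scores at both loci. Across peaks, Spearman's rho of width and score was 0.91 at Eip74EF (17 peaks), 0.69 at Eip75B (37 peaks) and 0.72 on the rest of 3L (691 peaks). Both measures derive from one set of peak calls, and peaks are not independent replicates.

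**Figure D3:**
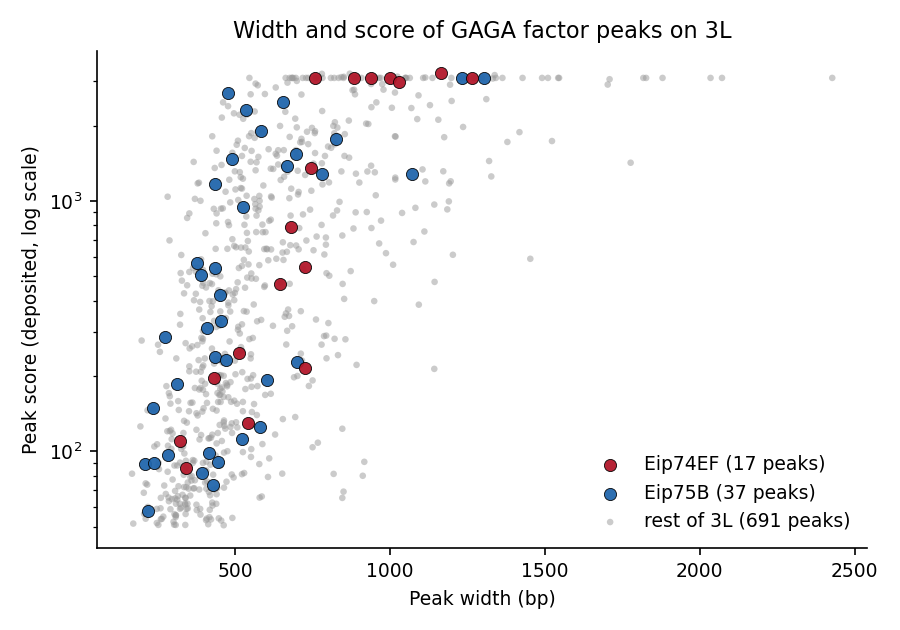
Width in bp (x axis) and deposited score on a log scale (y axis) of each peak on 3L, with 17 peaks at Eip74EF, 37 at Eip75B and 691 elsewhere. Points of Eip74EF reach the tied score of 3100 or more 6 times and none is narrower than 323 bp, while those of Eip75B extend down to 209 bp and a score of 57.59.

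Peaks followed each other closely at both loci. The median gap was 1.61 kb at Eip74EF, with quartiles at 0.99 and 2.25 kb, and 2.69 kb at Eip75B, with quartiles at 0.97 and 4.88 kb. On the rest of 3L the median gap was 9.55 kb, with quartiles at 0.91 and 42.32 kb. Gaps under 2 kb made up 9 of 16 gaps (56.2%) at Eip74EF and 15 of 36 (41.7%) at Eip75B, against 219 of 688 (31.8%) on the rest of the arm. Windows with at least 5 peaks had a share of short gaps at least as large in 30.2% of cases for Eip74EF and in 43.4% for Eip75B. This comparison turned with the settings. With peaks closer than 500 bp merged, 0.55% of windows reached the share of Eip74EF and 13.1% that of Eip75B, and with the lower-scoring 50% of the list left out 86.1% reached that of Eip74EF. Gaps under 500 bp were rarer at the loci, with 1 of 16 at Eip74EF and 4 of 36 at Eip75B, against 140 of 688 on the rest of 3L. Gaps under 5 kb made up 14 of 16 (87.5%) at Eip74EF and 27 of 36 (75%) at Eip75B, against 41.4%. The lower quartile of gap length was thus much the same in all 3 sets, and the upper quartile was far shorter at the loci. Many peaks in a region of fixed size leave little room for long gaps, and gaps across region edges were not counted. The shorter upper quartile therefore largely restates the peak density.

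**Figure D4:**
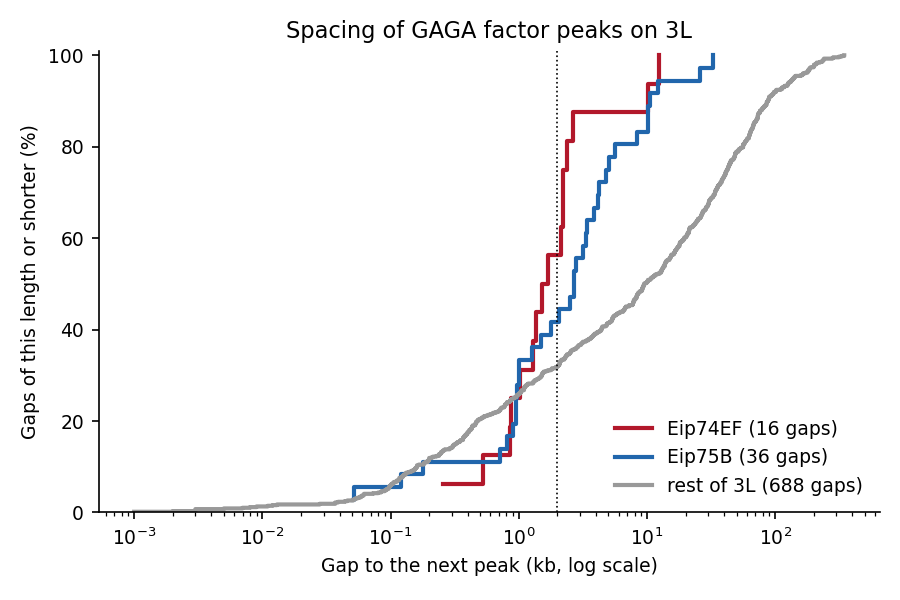
Cumulative share of gaps between neighbouring peaks (y axis, %) by gap length in kb on a log scale (x axis), for 16 gaps at Eip74EF, 36 at Eip75B and 688 on the rest of 3L, with a dotted line at 2 kb. The 3 curves meet near their lower quartiles, at 0.99, 0.97 and 0.91 kb. Above them the loci have the larger share, with 87.5% of gaps at Eip74EF and 75% at Eip75B under 5 kb, against 41.4% elsewhere. Under 500 bp the loci have the smaller share, with 1 gap at Eip74EF and 4 at Eip75B, against 140 elsewhere.

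Runs at Eip75B were many and short. The 37 peaks formed 10 runs of 2 or more and 12 single peaks, and 25 peaks (67.6%) lay in runs. The largest run held 4 peaks from 18012777 to 18016276, which scored 149.06, 312.39, 96.49 and 1539.41 and covered 46.3% of 3.5 kb. There were 3 runs of 3 peaks and 6 pairs. Runs of 4 or more held 6 of 17 peaks (35.3%) at Eip74EF and 4 of 37 (10.8%) at Eip75B, against 8.54% on the rest of 3L. At each locus this share comes from 1 run. Runs were not compared with windows of the same size, and peaks on the rest of 3L are sparser.

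The occupied stretch was shorter than the region at Eip74EF and, with the outermost peaks left out, at Eip75B. At Eip74EF all peaks lay within 56.4 kb, from 17556404 to 17612826, and the longest gaps inside it were 10.21 and 12.51 kb, on either side of the tied peak from 17583395 to 17584334. At Eip75B all peaks together spanned 192.1 kb of the 200 kb region. Of these 37 peaks, 35 lay within 132.4 kb, from 17940362 to 18072767. The first peak, which scored 1908.81, was set off from them by 32.8 kb and the last, a peak that scored 73.28, by 25.9 kb. Beyond the edges of the Eip74EF region, the nearest peaks scored 71.34 (17526485 to 17526852) and 385.56 (17646401 to 17647493). Those beyond the Eip75B region scored 1025.92 (17871855 to 17872529) and 745.95 (18107389 to 18107926). The midpoint of the last Eip75B peak lay 1.2 kb inside the edge of the region, that of its first peak 7.3 kb and those of the outermost Eip74EF peaks 16.9 and 17.6 kb.

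The 3 most similar windows of 3L are given for each region, and how many windows were similar was not counted. Ranked by peak number, covered length and summed score among 251 end-to-end windows of 90 kb, the window most like the Eip74EF region ran from 20970001 to 21060000, with 12 peaks over 11.2 kb and 5 scores of 3100 or more. That share of high scores was 35.3% at Eip74EF, against 41.7% in this window, and the median score was 789.14 at Eip74EF, against 2862, so high scores were not particular to Eip74EF. The window was followed by those from 18720001 to 18810000, with 13 peaks, and from 540001 to 630000, with 11. For Eip75B, among 111 windows of 200 kb, the most similar ran from 21000001 to 21200000, with 19 peaks over 14.67 kb and 5 scores of 3100 or more. The next were those from 7800001 to 8000000, with 20 peaks, and from 22800001 to 23000000, with 13.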

How the data were processed

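GAGA factor ChIP-seq of Kc cells was analysed from 1 peak list of the ChIP sample. The submitters' processing notes name Bowtie and the BDGP5 assembly, and MACS is the peak caller per the file headers. The sources used here give no versions, settings, duplicate handling or pooling. No scaling was applied to the score deposited by the authors, whose unit the file does not name. Read depth is unknown. Widths and gaps follow the deposited starts and ends, written 1-based.

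Peak number, covered length, median width, median score and gaps were computed in Python 3.11.15 with pandas 2.3.3, SciPy 1.17.1 and NumPy 2.4.6, and Matplotlib 3.10.9 drew the plots. Each locus was set beside windows of its size in 5 kb steps. Medians and gap shares used windows with at least 5 peaks. Runs joined peaks at gaps under 2 kb. The counting was tested on simulated lists. The regions, the lists and the rules for naming were chosen with earlier results of these data known. Named peaks were the 10 highest by score, the widest, the narrowest, the lowest-scoring and those of the largest run, and named windows were the 3 most alike by rank. Peaks at region edges and the fullest windows are also given. An ecdysone pathway gene list was not counted, since it needs BDGP5 gene positions.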

Additional observations from a re-analysis of the deposited data

How the results depend on the processing

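Of 144 recomputed values, 129 were counted as unchanged and 15 as moved. Some of the 129 could not move. End-to-end windows, windows of the 5 major arms and windows with at least 1 peak change only the windows, so values of the loci stay the same there by construction. Values of the loci counted as moved beyond 1.5-fold, and shares of windows beyond a 95% exact binomial interval. That interval was wide, wider than the 886 windows of 90 kb in 5 kb steps would give. The labels match an interval for about 47 windows, the number of end-to-end windows of 90 kb with at least 5 peaks. With scores of 100 or more, the share of windows reaching the median width of Eip74EF went from 14.2% to 21.5%. This counted as unchanged. The share of 3L windows with as many peaks was at most 0.168% for Eip74EF and 0% for Eip75B in every setting restricted to 3L, and 0.343% and 0.0864% over the 5 major arms. With the lower-scoring 50% of the list left out, Eip74EF kept 11 peaks and Eip75B 18. There the median score was 3100 and 1429, the covered length of Eip75B was 11.93 kb, and 20% of gaps at Eip74EF were under 2 kb. In that setting 86.1% of windows reached the gap share of Eip74EF, 29.3% its median width, and 44.2% the median score of Eip75B. After peaks closer than 500 bp were merged, 0.55% of windows reached the gap share of Eip74EF, 34.9% its median width, 13.1% the gap share of Eip75B and 50.7% its median score, which became 506. Keeping scores of 100 or more made that median 566.7. Each of these settings changes which peaks are counted, at the loci and in the windows. Windows with at least 1 peak were a setting chosen after seeing the data. The setting with BDGP5 gene extents was not run. No paired analysis was possible because the input sample had no peak list here, and with a single ChIP sample no replicate could be left out.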

Other observations

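Strong and weak peaks alternated along Eip74EF, a pattern noticed after the values were seen and given here without a test. Of its 15 interior peaks, 13 scored either above both neighbours or below both (86.7%), against 22 of 35 (62.9%) at Eip75B and 64% of the peaks on the rest of 3L. The first 15 peaks of Eip74EF alternated without exception, and the last 2 did not continue the order. The 8 odd-numbered ones scored from 543.76 to 3233.06, with a median of 3100, and the 7 even-numbered ones from 85.94 to 464.53, with a median of 196.77. These 15 peaks were taken as the longest alternating stretch, so each odd-numbered peak scores above its neighbours in it by choice. The difference between the 2 sets is therefore no separate evidence. The longest such stretch at Eip75B had 9 peaks, and none is given for the rest of 3L. With scores under 100 left out, or with peaks closer than 500 bp merged, 13 of 14 interior peaks of Eip74EF alternated. Each of these settings left 16 peaks, so they probe the pattern little. With the lower-scoring 50% of the list left out, Eip74EF kept 11 peaks, and alternating peaks were not counted there. The peak that scored 215.73 drops out in that setting, and the peaks on either side of it, both at the tied score, become neighbours. The alternation is therefore broken at that place.

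At Eip74EF all 9 peaks that scored under 1000 lay within 2.2 kb of a peak of 1000 or more, at a median of 1.13 kb. At Eip75B 13 of 24 (54.2%) lay within 5 kb of one, and the median distance was 4.04 kb, against 27.9% and 18.59 kb on the rest of 3L, where peaks are sparser. The 8 peaks of 1000 or more at Eip74EF were never closer than 2.87 kb and had a median gap of 5.27 kb. The 13 at Eip75B had a median gap of 5.59 kb, and 3 of those gaps were under 2 kb. Whether the weak peaks beside strong ones are separate sites or parts of the same enriched stretch was not tested, since the list holds no read profile.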
